A study of Rattus norvegicus with 132 samples.

Results

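Compound Kushen powder was compared with its oral vehicle in rat colon epithelium taken at day 7 of a course of abdominal irradiation. The comparison comprised 12 of the 132 libraries of the series, 6 from rats given the powder and 6 from rats given the vehicle, and they were chosen by the sample titles alone. All 12 came from Sprague Dawley rats that received 5 fractions of 4 Gy to the abdomen between day 0 and day 4. The powder group received oral compound Kushen powder, which some sample descriptions call a pill, and the vehicle group received water by mouth. The labels call the samples biological replicates but give no age, sex, powder dose or animal identity, so p-values measure the spread between libraries. For edgeR that spread was estimated over 42 colon libraries of 7 groups, with these 12 among them. Each group holds 3 libraries of library series 1 and 3 of series 2, the series being the first digit of the library name, and what it stands for is not given.

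Compound Kushen preparations are Chinese herbal extracts made with Sophora root, which is rich in matrine-type alkaloids. The colon lining is renewed from stem cells at the base of the crypts, which give rise to absorptive colonocytes, mucus-secreting goblet cells, hormone-secreting enteroendocrine cells and chemosensory tuft cells. Radiation kills dividing crypt cells and is followed by a phase of regrowth and inflammation. Lymphocytes lie between the epithelial cells and macrophages lie beneath them, so preparations of epithelium carry some RNA of both. Irradiated tissue also switches on interferon-stimulated genes, a set of antiviral genes controlled by transcription factors of the STAT and IRF families.

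The 12 libraries held 17.2 to 19.4 M counts each and from 14610 to 15859 detected genes. Mitochondrial genes took 2.97% to 4.71% of the counts in powder libraries and 3.39% to 5.51% in vehicle libraries, and the difference of the means, -0.25 percentage points, was within the spread (exact two-sided permutation test over 924 assignments, p = 0.615, the smallest possible p being 0.00216). Colonocyte markers were present, as the epithelial label states, and the 28 of them summed to 6210 to 42372 CPM, counts scaled to library size, in powder libraries and to 7429 to 19612 CPM in vehicle libraries. The 18 markers of small intestinal enterocytes summed to 171 to 436 CPM in powder libraries and to 248 to 366 CPM in vehicle libraries. Other tissue was present as well: 16 smooth muscle genes summed to 544 to 1136 CPM with powder and to 648 to 801 CPM with vehicle. The 13 genes on the mast cell list summed to 2.25 to 4.80 CPM with powder and to 1.37 to 3.01 CPM with vehicle. Of them Mcpt4, Ms4a2 and Fcer1a were listed at 0 in all 12 libraries, but so were Junb and Ppp1r15a, which most cells express, so a listed 0 does not show that a transcript was absent.

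Libraries of the same group differed more than the groups did. The first principal component of log2 CPM carried 56.7% of the variance, and its scores in powder libraries 1 to 6 were -25.3, -44.7, -2.43, 41.7, -62.5 and 100.04. In vehicle libraries 1 to 6 the scores were 56.4, -23.9, 13.3, -23.4, 8.74 and -38.0. Powder libraries 5 and 6 stood at opposite ends of this axis, with all vehicle libraries between them, and the group means did not separate (exact two-sided permutation p = 0.944). The same spread was seen in Slc26a3, the chloride/bicarbonate exchanger of mature colonocytes, which had 270, 198, 688, 1086, 71.0 and 4428 CPM in powder libraries 1 to 6, against 1589, 407, 945, 262, 866 and 141 CPM in vehicle libraries 1 to 6. Powder library 6 had the highest value and powder library 5 the lowest of all 12. Across the 13306 genes tested, the median within-group SD was 0.33 on the log2 CPM scale and the median absolute difference between group means was 0.09. The SD exceeded the difference in 12425 genes. Many of the genes and lists in which powder library 5 or 6 stood highest are therefore given below also without it, but not all of them.

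**Figure D1:**
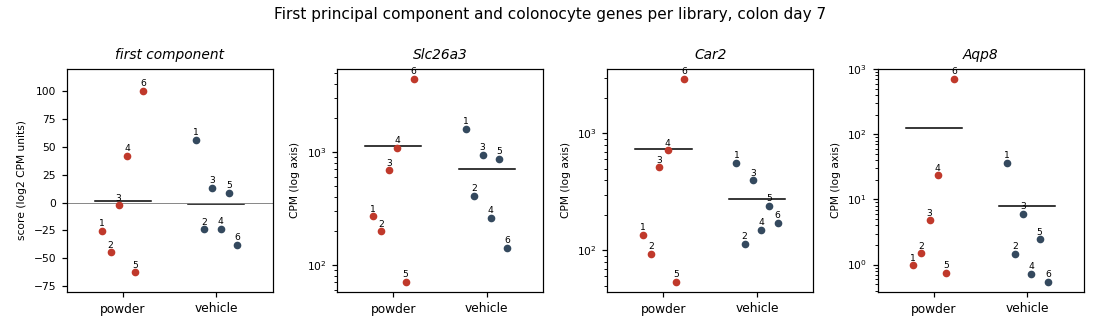
First principal component score and CPM (log axes) of Slc26a3, Car2 and Aqp8 in each of the 6 powder and 6 vehicle libraries; numbers are library numbers and bars are group means. Powder libraries 5 and 6 lie at opposite ends in the first component, at -62.5 and 100.04, and the vehicle libraries lie between them.

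No gene passed an adjusted p of 0.05 between powder and vehicle. In edgeR's quasi-likelihood test with Benjamini-Hochberg adjustment, 0 of 13306 genes were called (0%), and the smallest adjusted p was 0.252. DESeq2 called 2 genes, the granzymes Gzmbl2 and Gzmf, with a smallest adjusted p of 0.0108, and limma's voom with sample weights, chosen after the data were seen, called 0. At an unadjusted p under 0.05 edgeR had 462 genes (3.47%), of which 325 (2.44%) had a higher and 137 (1.03%) a lower fitted value with powder. An edgeR fit of these 2 groups alone had 233 such genes of 12403 tested and a smallest adjusted p of 0.790. The groups did not overlap in 15 genes that were higher (0.113%) and in 8 that were lower with powder (0.0601%). The median log2 fold change over all genes was 0.04 and 61.5% of the fitted values were above 0.

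The precision of this null result differed between genes. The median standard error of the log2 fold change was 0.18. Standard errors and intervals rest on the spread estimated over 42 colon libraries of 7 groups, not over the 2 compared groups alone. The 95% confidence interval lay within ±0.5 log2 units for 54.0% of the 13231 genes with an interval, within ±1 for 79.4% and within ±2 for 95.4%. For the remaining genes a 4-fold difference in one direction was not outside the interval. Among 816 distinct tested members of 48 lists of pathway and cell type genes, 37 (4.53%) had a higher and 14 (1.72%) a lower fitted value at an unadjusted p under 0.05, and 28 of the 48 lists had no such member.

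**Figure D2:**
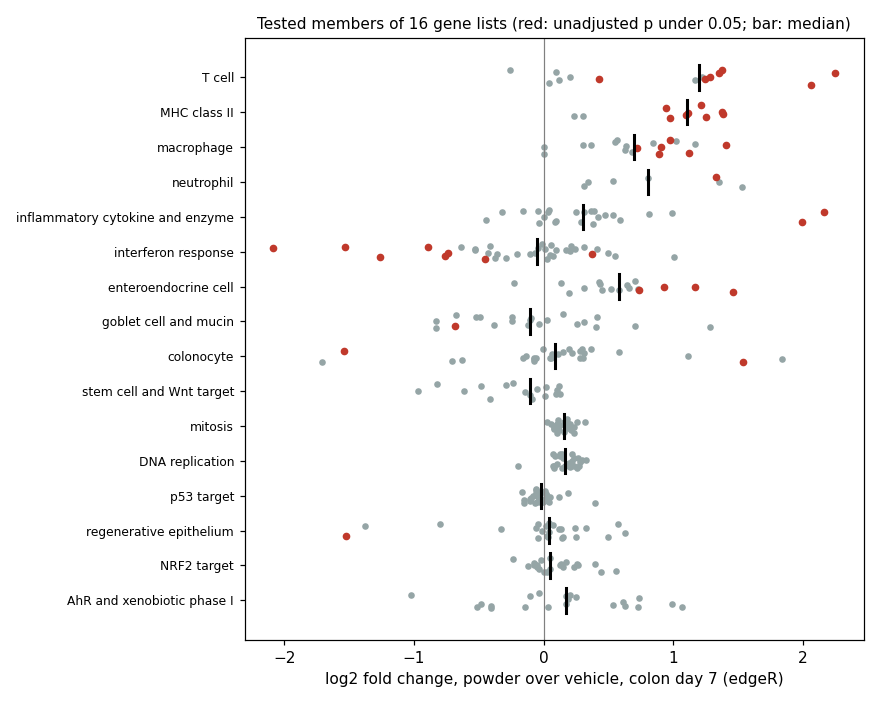
Log2 fold change, powder over vehicle, of each tested member of 16 gene lists in colon at day 7; red points have an unadjusted p under 0.05 and black bars are list medians. T cell, MHC class II and macrophage members lie mostly right of 0 (medians 1.20, 1.11 and 0.70), interferon response members lie on both sides (median -0.05), and no point passed the adjusted threshold.

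Genes of cytotoxic lymphocytes had the smallest p-values of the whole table. Gzmbl2, a granzyme of the kind that killer lymphocytes store in their granules, had 5.04, 3.09, 4.41, 5.28, 9.22 and 9.11 CPM in powder libraries 1 to 6, against 1.48, 0.50, 0.25, 1.85, 2.80 and 1.00 CPM in vehicle libraries 1 to 6. Every powder library lay above every vehicle library, which held for 0.113% of all genes. The genes of this paragraph were picked by their small p in these same libraries, so a lack of overlap adds no support. The log2 fold change was 2.21 ± 0.49 (SE; 95% confidence interval 1.22 to 3.19; edgeR unadjusted p = 5.68e-05). Its adjusted p was 0.252 in edgeR's quasi-likelihood test and ran from 0.011 to 1 over 23 other settings. Gzmf, another granzyme gene, had 0.89, 0.75, 0.82, 0.68, 2.63 and 0.77 CPM with powder, against 0.26, 0.09, 0, 0.41, 0.41 and 0.09 CPM with vehicle. Ccl5, a chemokine made by activated T cells, had 0.42, 0.47, 0.49, 0.29, 0.99 and 0.32 CPM with powder, against 0.16, 0, 0.05, 0.21, 0.16 and 0.05 CPM with vehicle. Neither gene overlapped between the groups, and the log2 fold changes were 2.36 ± 0.52 for Gzmf and 2.25 ± 0.50 for Ccl5. The vehicle values of both rest on few counts per library, so the lack of overlap and the fold changes are uncertain. Cd7, a surface protein of T and natural killer cells, did not overlap either, with 1.97 to 4.51 CPM with powder and 0.44 to 1.27 CPM with vehicle (log2 fold change 1.62 ± 0.41). Klrk1, which encodes the activating receptor NKG2D, had 0.20 to 1.69 CPM with powder and 0.11 to 0.47 CPM with vehicle, and these ranges overlapped. Its log2 fold change was 1.72 ± 0.44, or 1.44 without powder library 5. Granzyme genes are close copies of one another, so reads can be split between them and the value of any single granzyme is uncertain.

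Of the 22 genes on the T cell list, 14 were tested. Their fitted values were higher with powder in 13 and lower in 1, none was called, and 7 had an unadjusted p under 0.05 in the higher direction, where the share over all genes was 2.44%. The median was 1.20, against 0.04 over all genes, of which 61.5% were fitted above 0. They included Ccl5, Nkg7 (a granule protein), Gzma (a granzyme), Prf1 (perforin, which forms pores in target cells), Cd2 (an adhesion receptor) and Lck (a kinase of T cell receptor signalling). Cd3g, a subunit of the T cell receptor complex, was the member below 0, at -0.26 log2, with 3.72 to 9.53 CPM with powder and 6.27 to 11.4 CPM with vehicle. The 22 genes summed to 17.6 to 32.3 CPM with powder and to 14.7 to 26.2 CPM with vehicle, so the summed level overlapped widely. Without powder library 5, the highest powder library for Gzmbl2, Gzmf, Ccl5, Cd7 and Klrk1, the list median was 0.62 and 4 members had an unadjusted p under 0.05. In that setting 2.14% of all genes were higher and 1.19% lower at that p. Without it the log2 fold changes were 2.07 for Gzmbl2, 1.91 for Gzmf, 1.88 for Ccl5 and 1.40 for Cd7. In bulk tissue, more cells of a type and more RNA per cell cannot be told apart.

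Gzmbl2, Ccl5 and Cd7 averaged less in both irradiated groups than in non-irradiated colon. Gzmbl2 averaged 6.03 ± 2.55 CPM with powder and 1.31 ± 0.94 CPM with vehicle, while irradiated untreated colon at day 7 had 1.70 ± 1.21 CPM and non-irradiated colon 15.8 ± 3.86 CPM (SD, 6 libraries each). Ccl5 averaged 0.50 ± 0.25 CPM with powder and 0.10 ± 0.08 CPM with vehicle, beside 0.18 ± 0.09 CPM in irradiated untreated and 5.58 ± 1.52 CPM in non-irradiated colon. Cd7 followed the same order of means, at 2.67 ± 0.93, 0.87 ± 0.40, 1.02 ± 0.73 and 24.9 ± 5.98 CPM in the powder, vehicle, untreated and non-irradiated groups. The powder means thus lay above those of both other irradiated groups and below the non-irradiated mean, and the powder comparisons with these groups share the powder libraries.

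**Figure D3:**
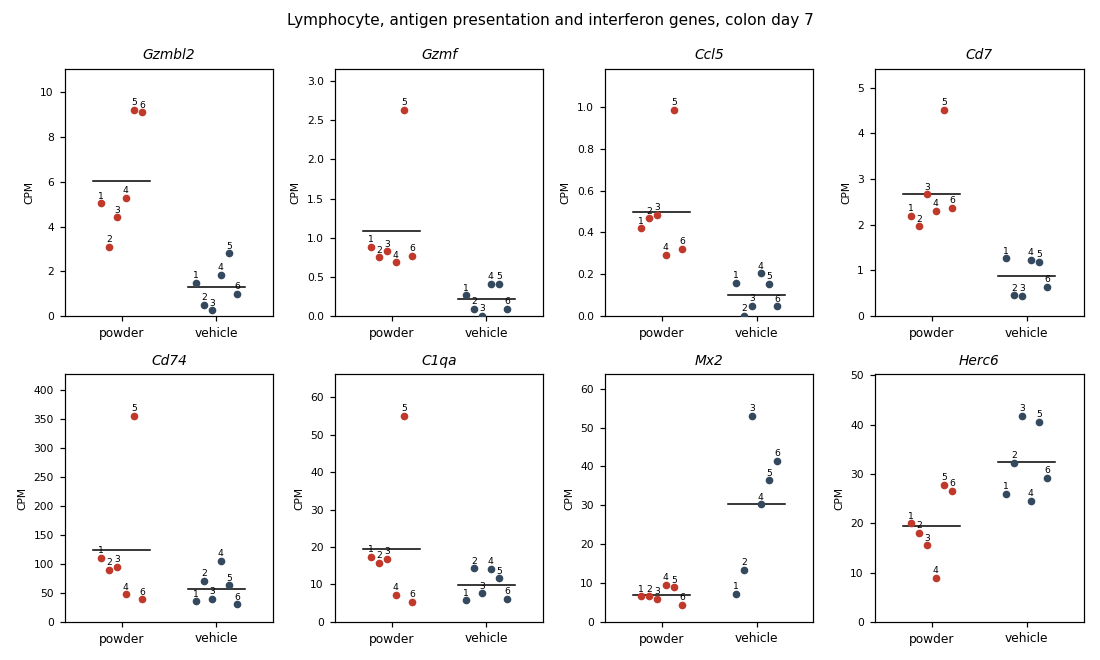
CPM of 4 lymphocyte genes (Gzmbl2, Gzmf, Ccl5, Cd7), of the antigen presentation gene Cd74, the macrophage gene C1qa and the interferon-stimulated genes Mx2 and Herc6 in each powder and vehicle library; bars are group means and numbers are library numbers. The upper 4 genes, picked by small p, do not overlap between groups, which held for 0.113% of all genes in that direction. The means of Cd74 and C1qa rest on powder library 5 (355 and 55.1 CPM), and Mx2 overlaps through vehicle library 1 (7.22 CPM).

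MHC class II genes, whose products present antigen on macrophages, dendritic cells, B cells and stressed epithelium, had higher fitted values with powder in 10 of 10 tested members. None was called and 8 had an unadjusted p under 0.05, with a median of 1.11; over all genes 2.44% had such a p in the higher direction and 61.5% were fitted above 0. The values came largely from powder library 5. Cd74, the invariant chain that escorts class II molecules, had 110, 89.7, 95.3, 47.8, 355 and 38.9 CPM in powder libraries 1 to 6, against 35.4, 70.9, 39.5, 105, 62.9 and 29.9 CPM in vehicle libraries 1 to 6. Apart from powder library 5 the groups overlapped over nearly their whole range. RT1-Ba, a class II alpha chain, had 69.4 CPM in powder library 5 and 8.34 to 11.1 CPM in the other powder libraries, against 3.33 to 15.5 CPM with vehicle. Ciita, the master regulator of class II transcription, had 9.78 CPM in powder library 5 and 2.30 to 3.59 CPM in the others, against 0.96 to 2.97 CPM with vehicle. Without powder library 5 the list median was 0.41 and 0 members had an unadjusted p under 0.05; the log2 fold change of Cd74 was then 0.39, against 1.10 with it, and those of RT1-Ba and Ciita were 0.43 and 0.75. RT1 genes are a family of near copies, and counts of single members are uncertain.

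Macrophage and neutrophil genes followed the same library. Of the 18 tested macrophage members 17 had higher fitted values with powder, with 6 at an unadjusted p under 0.05 and a median of 0.70. Over all genes 61.5% were fitted above 0 and 2.44% were higher at that p. Without powder library 5 the macrophage median was 0.28 and 0 members were under that p. C1qa, a subunit of complement C1q made by tissue macrophages, had 17.3, 15.8, 16.8, 7.19, 55.1 and 5.33 CPM with powder, against 5.75, 14.3, 7.65, 14.1, 11.6 and 6.15 CPM with vehicle, and without powder library 5 its log2 fold change was 0.31. The macrophage markers summed to 177 to 532 CPM with powder and to 170 to 307 CPM with vehicle. All 7 tested neutrophil members of 14 had higher fitted values, 1 of them with an unadjusted p under 0.05. That gene was Csf3r, the receptor for granulocyte colony-stimulating factor, with 5.64 CPM in powder library 5 and 0.93 to 1.31 CPM in the other powder libraries, against 0.37 to 1.38 CPM with vehicle. Without powder library 5 its log2 fold change was 0.76, with an unadjusted p in edgeR of 0.177. The neutrophil markers summed to 51.7 to 135 CPM with powder and to 36.2 to 66.9 CPM with vehicle, and Fpr2 was listed at 0 in all 12 libraries.

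Several interferon-stimulated genes had lower values with powder, without passing the adjusted threshold. Mx2, a dynamin-like antiviral GTPase, had 6.58, 6.61, 5.97, 9.58, 8.89 and 4.43 CPM in powder libraries 1 to 6, against 7.22, 13.4, 53.1, 30.3, 36.5 and 41.4 CPM in vehicle libraries 1 to 6. The powder libraries lay close together and below 5 of the 6 vehicle libraries, while vehicle library 1 fell within their range. The log2 fold change was -2.09 ± 0.51 (95% confidence interval -3.13 to -1.05; edgeR unadjusted p = 0.000241), and it ran from -2.29 to -1.70 over the 23 other settings. Herc6, a ubiquitin ligase induced by interferon, had 20.0, 18.0, 15.5, 8.95, 27.7 and 26.6 CPM with powder, against 25.9, 32.3, 41.8, 24.6, 40.6 and 29.2 CPM with vehicle, and the groups overlapped (log2 fold change -0.74 ± 0.25). Irf7, a transcription factor that amplifies the interferon response, had 77.0, 90.5, 64.0, 35.0, 85.3 and 111 CPM with powder, against 75.4, 119, 136, 89.8, 113 and 101 CPM with vehicle (log2 fold change -0.45 ± 0.20).

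Of the 39 genes on the interferon list 36 were tested, none was called, and 16 had higher and 20 lower fitted values, with a median of -0.05. Isg15, a member that was not tested, was listed at 0 in all 12 libraries, which does not show that its transcript was absent. At an unadjusted p under 0.05, 7 were lower, where the share over all genes was 1.03%, and 1 was higher. The 7 were Mx2, Usp18 (which removes the ubiquitin-like protein ISG15 and dampens interferon signalling), Oas2 (a sensor of double-stranded RNA), Herc6, Mx1, Irf7 and Ifit1. The 1 higher member was Psmb9, an immunoproteasome subunit, with 52.2 to 79.9 CPM with powder and 35.5 to 61.2 CPM with vehicle. Usp18 had 0.64 to 2.16 CPM with powder and 1.27 to 6.86 CPM with vehicle (log2 fold change -1.26 ± 0.33), and Oas2 had 0.19 to 0.42 CPM with powder and 0.21 to 1.50 CPM with vehicle (-1.54 ± 0.42). Without powder library 5, 8 members were lower at that p, where 1.19% of all genes were, and the median was -0.26. The summed level of the list was 802 to 2278 CPM with powder and 1197 to 1601 CPM with vehicle, and it was set mainly by other members such as Gbp2, which had 197 to 1059.7 CPM with powder and 216 to 504 CPM with vehicle. Mx1 and Mx2 are close copies, so their counts are uncertain.

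Of these 7 lower members, 3 have a promoter in RefSeq (build GRCr8), where each entry gives 250 bases before to 50 bases after the gene's start. They are printed to show the sequence around the starts of the genes that had lower values together. The motif searched was GAAANNGAAA, the core of the element that IRF and STAT factors bind in interferon-stimulated genes, on the strand shown and, as TTTCNNTTTC, on the other. Capitals mark matches.
Herc6 (chr4:88896944-88897243, minus strand): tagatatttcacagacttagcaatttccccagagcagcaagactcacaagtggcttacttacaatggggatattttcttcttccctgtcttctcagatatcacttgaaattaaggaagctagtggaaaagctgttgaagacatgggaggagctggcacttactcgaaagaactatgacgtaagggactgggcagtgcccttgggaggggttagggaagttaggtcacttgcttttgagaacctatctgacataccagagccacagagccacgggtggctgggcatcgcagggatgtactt
Mx1 (chr11:50294557-50294856, minus strand): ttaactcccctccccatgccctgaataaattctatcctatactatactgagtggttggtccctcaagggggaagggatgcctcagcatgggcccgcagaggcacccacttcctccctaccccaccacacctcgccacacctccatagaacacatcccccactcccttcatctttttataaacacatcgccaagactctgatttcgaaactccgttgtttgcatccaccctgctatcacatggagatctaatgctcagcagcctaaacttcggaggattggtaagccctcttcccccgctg
Irf7 (chr1:205799974-205800273, minus strand): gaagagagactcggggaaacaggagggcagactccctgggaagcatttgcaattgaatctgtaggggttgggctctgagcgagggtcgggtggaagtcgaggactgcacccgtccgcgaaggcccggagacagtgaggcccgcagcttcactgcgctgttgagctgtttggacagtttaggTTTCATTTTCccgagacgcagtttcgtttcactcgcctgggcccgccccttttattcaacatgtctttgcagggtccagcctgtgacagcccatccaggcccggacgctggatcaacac
Irf7 holds 1 match, and Herc6 and Mx1 hold 0 in this window. Of 33469 rat promoters in that set, 3.92% hold the motif, and so did 18 of the 27 interferon list members that have an entry. A match describes the letters only.

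Among genes averaging at least 5 CPM in either group, the 6 smallest p-values in the higher direction belonged to Gzmbl2, Ifitm1, Ube2m, Nsmce1, Csf2rb and Psmb2, none of them called. Gzmbl2 and Csf2rb reached 5 CPM in the powder group alone. Ube2m, which conjugates the ubiquitin-like protein NEDD8, had 112, 125, 128, 145, 130 and 142 CPM with powder, against 102, 117, 122, 105, 106 and 99.7 CPM with vehicle, a log2 fold change of 0.26 ± 0.07. The difference came from library series 2, at 0.43, while series 1 gave 0.07. Nsmce1, a subunit of the SMC5/6 DNA repair complex, had 33.3, 28.6, 30.3, 34.2, 29.7 and 30.8 CPM with powder, against 24.9, 27.7, 26.4, 28.0, 23.4 and 25.1 CPM with vehicle. Its groups did not overlap, which held for 0.113% of all genes in that direction, and its log2 fold change was small at 0.27 ± 0.07. Psmb2, a subunit of the proteasome core, had 62.9 to 81.2 CPM with powder and 57.1 to 65.3 CPM with vehicle (0.22 ± 0.07). Ifitm1, an interferon-induced membrane protein, and Csf2rb, the shared receptor chain for interleukins 3 and 5 and GM-CSF, were highest in powder library 5, at 45.9 CPM and 19.9 CPM. Ifitm1 had 7.19 to 17.0 CPM in the other powder libraries and 5.32 to 9.57 CPM with vehicle, and its log2 fold change was 1.32 ± 0.35, or 0.82 without powder library 5. Csf2rb had 3.28 to 4.95 CPM in the other powder libraries and 0.82 to 4.67 CPM with vehicle, with a log2 fold change of 1.56 ± 0.47, or 0.88 without powder library 5.

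In the lower direction the 6 were Mx2, C3, Ghr, Cmpk2, Syvn1 and Herc6, likewise not called. C3 and Ghr reached a mean of 5 CPM in the vehicle group alone. C3, the central component of complement, had 4.06, 4.45, 2.18, 2.35, 2.68 and 2.44 CPM in powder libraries 1 to 6, against 7.75, 11.1, 7.30, 4.00, 7.25 and 5.65 CPM in vehicle libraries 1 to 6. Only vehicle library 4 fell within the powder range, and the log2 fold change was -1.24 ± 0.34 (edgeR unadjusted p = 0.000919). Ghr, the growth hormone receptor, had 3.32 to 6.56 CPM with powder and 4.96 to 9.71 CPM with vehicle (-0.62 ± 0.18). The difference came from library series 2, where it was -1.15, against -0.04 in series 1 (edgeR unadjusted p = 0.852). Cmpk2, a mitochondrial nucleotide kinase induced by interferon, had 11.4 to 26.8 CPM with powder and 22.4 to 49.4 CPM with vehicle (-0.73 ± 0.24). Syvn1, the ubiquitin ligase of endoplasmic reticulum protein degradation, had 54.0 to 74.4 CPM with powder and 69.7 to 80.2 CPM with vehicle (-0.18 ± 0.06). The ranges of all 6 genes overlapped between the groups.

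Absorptive cell genes varied between libraries and gave no call. Over all genes 61.5% were fitted above 0, and at an unadjusted p under 0.05 2.44% were higher and 1.03% lower. Of 28 tested colonocyte genes 17 had higher and 11 lower fitted values, with a median of 0.09, and 1 in each direction had an unadjusted p under 0.05. These were Car2, carbonic anhydrase 2, which had 136, 93.5, 511, 720, 54.1 and 2932 CPM with powder, against 561, 114, 397, 150, 240 and 173 CPM with vehicle, and Scnn1g, the gamma subunit of the epithelial sodium channel, which had 0.05 to 1.09 CPM with powder and 0.42 to 2.47 CPM with vehicle. The Car2 difference (log2 fold change 1.54 ± 0.72) followed powder library 6 and was 0.22 without it. Aqp8, a colonocyte water channel, had 714 CPM in powder library 6 and 0.75 to 23.5 CPM in the other powder libraries, against 0.55 to 36.3 CPM with vehicle (1.84 ± 1.99, or -1.15 without powder library 6). Atp12a, the non-gastric proton pump, had 21.4, 4.64, 48.0, 553, 5.60 and 1947 CPM with powder, against 810, 22.1, 164, 13.8, 180 and 1.18 CPM with vehicle. Its fitted log2 fold change was -1.71 ± 1.89 although its mean was higher with powder, and its sign depended on the settings. With powder libraries 5 and 6 both left out, a setting added after the data were seen, the colonocyte median was -0.31 with 23 of 28 members below 0. The share of all genes below 0 in that setting is not given here.

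Secretory cell genes were spread likewise. Enteroendocrine members had higher fitted values with powder in 16 of 17, with a median of 0.58, and 4 had an unadjusted p under 0.05, where 2.44% of all genes did in that direction and 61.5% were fitted above 0. Gcg, the proglucagon gene, had 156, 187, 89.9, 94.1, 306 and 87.7 CPM with powder, against 79.8, 129, 76.9, 92.2, 93.7 and 76.4 CPM with vehicle, and the groups overlapped (0.73 ± 0.29, or 0.48 without powder library 5). Scg2, a granule protein, Tac1, the substance P precursor, and Fev, a transcription factor of serotonin cells, were the other 3; without powder library 5 the median was 0.24 and 1 of the 17 was under that p. Goblet cell members were higher in 8 of 21 and lower in 13. Muc2, the main mucin of colonic mucus, which the table lists under the clone name AABR07006030.1, had 1582, 1616, 1345, 2480, 3166 and 940 CPM with powder, against 1013, 1407, 1193, 1576, 1314 and 1845 CPM with vehicle (0.41 ± 0.33, or 0.24 without powder library 5). Fcgbp, a mucus protein that binds mucin, was the 1 goblet member with an unadjusted p under 0.05, at 419 to 1045 CPM with powder and 452 to 1388 CPM with vehicle (-0.68 ± 0.28).

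Stem cell and division genes gave no call either. Lgr5, a receptor that marks crypt base stem cells, had 0.45 to 3.61 CPM with powder and 1.21 to 3.65 CPM with vehicle (-0.62 ± 0.47). Olfm4, a secreted stem cell zone protein, had 10.5, 8.01, 13.7, 13.5, 1.79 and 9.82 CPM with powder, against 17.0, 21.4, 16.2, 22.9, 30.9 and 6.83 CPM with vehicle (-0.97 ± 0.57, edgeR unadjusted p = 0.0949). Mki67, a marker of dividing cells, had 118 to 269 CPM with powder and 148 to 209 CPM with vehicle (0.08 ± 0.23). All 24 mitosis genes and 26 of 27 DNA replication genes had fitted values above 0, with medians of 0.15 and 0.16, and none had an unadjusted p under 0.05. Over all genes 61.5% were fitted above 0. Members of such lists vary together from library to library, so their shared sign is not 24 separate observations. Mitosis genes summed to 1018 to 2207 CPM with powder and to 1234 to 1690 CPM with vehicle.

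Damage and regrowth genes gave no call. Cdkn1a, the p53-induced inhibitor of cell division, had 277, 308, 212, 178, 372 and 220 CPM with powder, against 179, 294, 236, 274, 247 and 318 CPM with vehicle (0.02 ± 0.18, 0.903 as edgeR unadjusted p). Mdm2, which degrades p53, had 72.8 to 147 CPM with powder and 82.9 to 136 CPM with vehicle (0.02 ± 0.22). The 30 tested p53 targets had a median of -0.02 and ran from -0.17 to 0.39, with 0 at an unadjusted p under 0.05. Of 24 tested genes of regenerating epithelium 16 had higher and 8 lower fitted values, with a median of 0.04, and 1 was lower at such a p. Over all genes 61.5% were fitted above 0 and 1.03% were lower at that p. The 1 gene was Ly6i, a member of the Ly6 surface protein family. It had 2.98, 4.12, 1.65, 3.52, 2.12 and 3.34 CPM with powder, against 16.7, 5.62, 5.92, 7.38, 8.65 and 4.97 CPM with vehicle. Its groups did not overlap, which held for 0.0601% of all genes in the lower direction. The log2 fold change of Ly6i was -1.53 ± 0.65, or -1.02 without vehicle library 1.

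Inflammatory genes were fitted higher with powder in 19 of 24 tested members (median 0.30), with none called and 2 at an unadjusted p under 0.05. Over all genes 61.5% were fitted above 0 and 2.44% were higher at that p. The summed level of the list was highest in powder libraries 6 and 5, at 1065 and 990 CPM, and its median without them is not given here. Il22, a cytokine of lymphocytes that acts on epithelium, had 2.47, 2.25, 0.19, 1.42, 1.74 and 1.15 CPM with powder, against 0.32, 0.18, 0.05, 0.77, 0.31 and 0.68 CPM with vehicle (1.99 ± 0.64). Of the powder libraries, 5 lay above every vehicle library and library 3 did not. Ptgs2, the inducible cyclooxygenase, had 10.8 CPM in powder library 3, 4.51 CPM in library 5 and 0.75 to 1.50 CPM in the others, against 0.50 to 1.04 CPM with vehicle (2.16 ± 0.76, or 0.95 without powder library 3). The same libraries 3 and 5 were highest for the matrix metalloproteinases Mmp10, at 9.31 and 15.9 CPM, and Mmp13, at 9.41 and 3.62 CPM, where vehicle libraries did not exceed 0.97 and 0.59 CPM. These 2 genes are on the fibroblast and matrix list, not the inflammatory list. Of its 27 tested members 19 had higher and 8 lower fitted values, with a median of 0.19, and 2 were higher at an unadjusted p under 0.05. Without powder library 5 the Mmp10 log2 fold change was 2.60. The Mmp13 log2 fold change was 2.85 ± 1.35, or 1.02 without powder library 3. Il1b, interleukin 1 beta, had 2.18 to 10.7 CPM with powder and 1.50 to 4.72 CPM with vehicle (0.81 ± 0.53, or 0.46 without powder library 5). Lcn2, an antibacterial iron-binding protein, had 17.6 to 62.7 CPM with powder and 24.5 to 43.0 CPM with vehicle (0.09 ± 0.45). Reg3g, an antibacterial lectin, had 1321, 463, 216, 32.5, 80.2 and 28.9 CPM with powder, against 169, 154, 107, 314, 402 and 52.7 CPM with vehicle, and its log2 fold change of 0.63 ± 1.17 followed powder library 1 and was -0.41 without it.

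Genes that respond to ingested compounds gave 0 members at an unadjusted p under 0.05 on the aryl hydrocarbon receptor and phase I list (21 tested, median 0.17) and on the NRF2 list (22 tested, median 0.05). Cyp1a1, the enzyme most used as a readout of that receptor, had 10.6, 9.56, 7.13, 33.9, 11.9 and 53.1 CPM with powder, against 26.0, 9.53, 18.9, 6.66, 3.32 and 14.6 CPM with vehicle (0.73 ± 0.65, or 0.21 without powder library 6). The 2 high powder libraries, 4 and 6, were also the 2 with the highest Slc26a3 among powder libraries. Of 17 tested phase II and drug transport genes, 1 was lower at an unadjusted p under 0.05, where 1.03% of all genes were, and the list median was 0.09. On the vitamin D and calcium list 2 of 10 members had an unadjusted p under 0.05: Trpv6, the apical calcium channel, with 13.9 to 126 CPM with powder and 15.2 to 36.8 CPM with vehicle, and S100g, an intracellular calcium carrier, with 16.7 to 112 CPM with powder and 5.29 to 30.4 CPM with vehicle. Over all genes 2.44% were higher at that p. Without powder library 6 the log2 fold changes were 0.59 for Trpv6 and 1.20 for S100g. With powder libraries 5 and 6 left out, 0 members of that list were under that p and its median was 0.11, against 0.69 with all libraries. Of 11 tested genes on the bile acid list 4 had higher and 7 lower fitted values, and 1 was lower at an unadjusted p under 0.05. Over all genes 38.5% were fitted below 0 and 1.03% were lower at that p. On that list Fgf19, a hormone induced by bile acids, had 0 to 0.42 CPM with powder and 0.16 to 4.90 CPM with vehicle (-2.29 ± 0.92, or -1.39 without vehicle library 2). The powder values of Fgf19 rest on few counts per library, so its fold change is uncertain.

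At day 4 of the same course, 6 powder and 6 vehicle colon libraries in the same fit gave a different count. There edgeR's quasi-likelihood test with Benjamini-Hochberg adjustment called 1568 genes (11.8%), 650 higher (4.89%) and 918 lower (6.9%) with powder; at an unadjusted p under 0.05 the shares were 13.9% higher and 14.5% lower. Of the 650, the day 7 libraries, which are separate samples, gave a log2 fold change of the same sign in 411 (63.2%), with 22 (3.38%) at an unadjusted p under 0.05 in the same direction and 2 in the opposite one. Their median was 0.04 at day 7 and 0.49 at day 4. Of the 918 lower at day 4, 511 (55.7%) had the same sign at day 7, with 24 (2.61%) at that p in the same direction and 8 in the opposite one, and the medians were -0.02 at day 7 and -0.73 at day 4. Over all genes 61.5% were fitted above 0 at day 7, near the share among the 650, and 38.5% below 0, less than the 55.7% among the 918. At an unadjusted p under 0.05 the shares over all genes were 2.44% higher and 1.03% lower, against the 3.38% and 2.61% of these sets. The day 4 values chose these genes, so the day 4 medians are a description.

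Inflammatory and interferon genes were among those called at day 4. At day 7 no member of the inflammatory, interferon, neutrophil or regenerating epithelium lists was called. At day 4, 12 of 24 inflammatory genes, 15 of 36 interferon genes, 4 of 7 neutrophil genes and 5 of 24 regenerating epithelium genes were called lower with powder, where 6.9% of all genes were. Duox2, the epithelial oxidase that makes hydrogen peroxide, had at day 7 828, 662, 499, 693, 1205 and 1798 CPM in powder libraries 1 to 6, against 1463, 644, 671, 683, 1700.4 and 619 CPM in vehicle libraries 1 to 6, and the log2 fold change was -0.12 ± 0.50. At day 4 it averaged 135 ± 133 CPM with powder and 1226 ± 837 CPM with vehicle (log2 fold change -3.26, adjusted p = 0.000855 in edgeR's quasi-likelihood test). Gbp2, an interferon-induced GTPase, had a log2 fold change of 1.00 ± 0.61 at day 7 and -3.31 at day 4. Mx2 had log2 fold changes of -2.09 at day 7 and -2.20 at day 4, and C3 had -1.24 at day 7 and -1.84 at day 4. Of the lymphocyte genes, Gzmbl2 had 2.21 at day 7 and -0.29 at day 4, and Gzmf 2.36 and 0.03. For Ccl5 the values were 2.25 and -0.12, and for Cd7 1.62 and -0.02. Klrk1 had 1.72 at day 7 and -0.998 at day 4 (day 4 edgeR unadjusted p = 0.0208). None of these lymphocyte genes was called at day 4, and their day 7 values chose them. The T cell list had a median of 1.20 at day 7 and -0.06 at day 4, where 0 members were called.

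The difference between the days was tested itself. As day 7 minus day 4, 0 of 13306 genes passed (0%), with a smallest adjusted p of 0.0555 in edgeR's quasi-likelihood test with Benjamini-Hochberg adjustment; at an unadjusted p under 0.05, 1332 genes were higher (10%) and 767 lower (5.76%). DESeq2 called 183 genes and voom with sample weights 1599 for this difference, and edgeR called 67 without powder library 4 of day 7 and 53 without vehicle library 1 of day 7, so the edgeR count of 0 lies close to the threshold. The smallest p-values among genes of at least 5 CPM belonged to Tns4, an adhesion protein of epithelium, with a difference of 1.72 ± 0.34, and to Ghr, with -1.20 ± 0.24. Powder library 5 was the highest day 7 powder library for Tns4, at 289 CPM. The day 7 log2 fold change of Tns4 was 0.57, or 0.39 without that library. Gbp2 differed by 4.31 ± 0.90 and Duoxa2, the maturation factor of Duox2, by 3.74 ± 0.80. For Mx2 the difference was 0.11 ± 0.72 (edgeR unadjusted p = 0.876), an interval too wide to show that the days were alike.

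**Figure D4:**
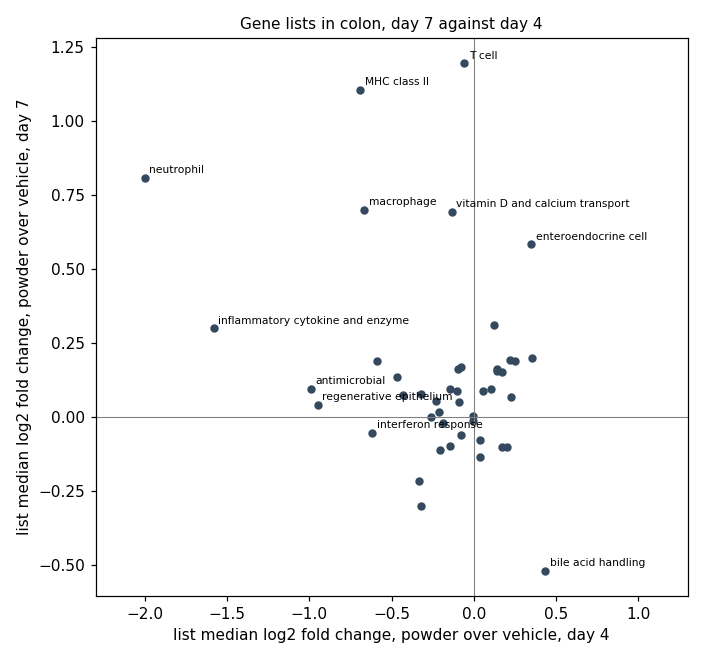
Median log2 fold change, powder over vehicle, of each gene list with at least 5 tested members in colon, at day 4 (x axis) and day 7 (y axis); the outlying lists are named. Neutrophil, inflammatory, macrophage and MHC class II lists lie above 0 at day 7 (medians 0.81, 0.30, 0.70 and 1.11) and left of 0 at day 4 (-2.0, -1.58, -0.67 and -0.69), the day 7 medians of these lists being larger with powder library 5 than without it.

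Jejunum of the same groups at day 7 had 1 gene called (0.00728% of 13741), with 181 higher (1.32%) and 518 lower (3.77%) at an unadjusted p under 0.05. The powder effect in colon minus that in jejunum had 0 genes called (0%; smallest adjusted p 0.584 in edgeR's quasi-likelihood test), with 209 genes higher (1.52%) and 48 lower (0.349%) at an unadjusted p under 0.05. Colon and jejunum libraries carry the same library numbers in pairs, which the labels do not tie to an animal, and this fit treats them as separate; with the library number as a block, added after the data were seen, the tissue difference again had 0 genes called, with 119 higher and 93 lower at an unadjusted p under 0.05. Ccl5 had a log2 fold change of 2.25 in colon and 1.86 in jejunum. Gzmbl2 had 2.21 in colon and 0.56 in jejunum, Mx2 -2.09 in colon and -0.67 in jejunum, and C3 -1.24 in colon and -1.95 in jejunum. Compound Kushen injection against its own injected vehicle in colon at day 7 also had 0 of 13641 genes called (0%), and so did the powder effect minus the injection effect (0%; smallest adjusted p 0.659 in edgeR's quasi-likelihood test); at an unadjusted p under 0.05 the injection had 129 genes higher (0.946%) and 222 lower (1.63%), and the difference 442 higher (3.24%) and 183 lower (1.34%). For Gzmbl2 the log2 fold change was 2.21 with the powder and -1.55 with the injection, and for Mx2 it was -2.09 with the powder and -0.53 with the injection. All injected groups are of library series 3, so the preparation and the library series cannot be told apart.

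Against non-irradiated colon, 8717 genes were called for the powder group (65.5%) and 8764 for the vehicle group (65.9%), 2 comparisons that share the non-irradiated libraries. Mx2 was 1.36 log2 units above non-irradiated colon with powder and 3.45 with vehicle, and C3 1.81 with powder and 3.05 with vehicle. Cd7 was -3.22 log2 units from non-irradiated colon with powder and -4.84 with vehicle. Colonocyte genes summed to 6210 to 42372 CPM with powder and to 7429 to 19612 CPM with vehicle, both under the 45328 to 53770 CPM of non-irradiated colon. Mitosis genes had a median of 2.00 log2 units above non-irradiated colon with powder and 1.89 with vehicle.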

How the data were processed

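The authors deposited raw read counts per gene symbol, not normalized, for 21837 genes in 2 tables with 168 library columns; 36 libraries stood in both and were used once. Per the submitters' processing notes, reads were aligned with STAR 2.7.10a to mRatBN7.2; no source used here names the read counter, annotation or strand setting. Libraries were total RNA read as pairs on a DNBSEQ-G400, per the labels' protocols. Columns were matched to samples by library name.

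Counts were filtered with filterByExpr, scaled by TMM and tested with edgeR 4.0.16 (glmQLFit, glmQLFTest; R 4.3.3) over 42 colon libraries of 7 groups, with library series as covariate; 84 libraries entered the tissue comparison and 66 the preparation comparison. CPM use TMM-scaled library sizes. Genes were called at a Benjamini-Hochberg adjusted p under 0.05. DESeq2 1.42.0 and limma 3.58.1 were alternatives, beside other scaling, filtering, covariates, single library series and each library left out; voom with sample weights, the joint omission of powder libraries 5 and 6, and the library number as a block across tissues, were added after the data were seen.

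The named genes are the 6 smallest p in each direction at 5 CPM or more and a fixed panel of 13, of which 1 is not reported here; genes from the lists were added where their list is described, and other genes of small p after their values were seen. The 48 lists hold 975 genes, 45 of them with no entry. The members and lists were chosen with earlier results of these data known. Library numbers repeat between colon and jejunum, and 8 of the 12 same-numbered pairs of these groups had deviations correlated above 0.1 (range -0.13 to 0.40).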

Additional observations from a re-analysis of the deposited data

Results flagged for a closer look

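For 70 genes and the mitochondrial share, the 6 libraries of each group were searched for 1 that stood apart from the others of its group by Dixon's criterion at the 95% level (its gap to the nearest library as a share of the group's range). It was met in 32 of 142 groups of values, and 21 of the 32 belonged to powder library 5. Chance gives about 1 in 20 for independent, normally distributed values. CPM were searched without taking logs, and every flagged library stood at the high end of its group. Many of these genes were also chosen after their values were seen and vary together between libraries, so that rate is no yardstick for this count. The part of powder library 5 in many of the results above was measured by leaving it out.

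Powder library 5 was the highest of its group in lymphocyte genes, with 0.988 CPM of Ccl5, 2.63 CPM of Gzmf, 4.51 CPM of Cd7, 7.99 CPM of Runx3, 5.69 CPM of Gzma and 1.22 CPM of Prf1. It was the highest in antigen presentation genes, with 355 CPM of Cd74, 165 CPM of RT1-Da, 69.4 CPM of RT1-Ba, 35.7 CPM of RT1-DMb and 9.78 CPM of Ciita. In myeloid and interferon-induced genes it had 55.1 CPM of C1qa, 47.9 CPM of C1qb, 55.9 CPM of C1qc, 17.4 CPM of Aif1, 19.9 CPM of Csf2rb, 5.64 CPM of Csf3r, 10.7 CPM of Il1b and 45.9 CPM of Ifitm1. The remaining genes were Fev at 1.55 CPM and Tns4 at 289 CPM.

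Powder library 6 stood apart in colonocyte genes, at 2932 CPM of Car2, 714 CPM of Aqp8, 4428 CPM of Slc26a3 and 1947 CPM of Atp12a. Vehicle library 1 stood apart with 36.3 CPM of Aqp8, 810 CPM of Atp12a and 16.7 CPM of Ly6i. Single values were 1321 CPM of Reg3g in powder library 1, 10.8 CPM of Ptgs2 in powder library 3, 129 CPM of Gcg in vehicle library 2 and 13.9 CPM of RT1-DMb in vehicle library 4.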

How the results depend on the processing

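The count of called genes for powder against vehicle at day 7 was 0 in 22 of 23 alternatives, and 2 with DESeq2, where Gzmbl2 (log2 fold change 2.22) and Gzmf passed. It stayed 0 without each library in turn (0 to 0), with 364 to 964 genes at an unadjusted p under 0.05; without powder library 6 that number was 964 and with powder libraries 5 and 6 left out it was 965. With only the groups of the contrast it was 233 (131 higher, 102 lower with powder), and with voom 1259 (737 higher, 522 lower). For the difference between the days the count was 183 with DESeq2, 1599 with voom, 1 in library series 2 alone, and 0 to 67 with single libraries left out. The tissue difference gave 118 with voom, and the preparation difference 3 with voom and 1 with only the groups of the contrast. The cause was not tested.

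Some panel genes, none of them called, changed sign. Atp12a was 1.11 without the series term, 0.11 with the mitochondrial share as covariate, 3.69 in series 2 alone and 1.23 with voom. Reg3g was -0.12 with only the groups of the contrast and -2.44 in series 2 alone. In series 1 alone Lgr5 was 0.29, Slc26a3 -1.38 and Cyp1a1 -1.03, and in series 2 alone Cdkn1a was -0.11, Mdm2 -0.28 and Mki67 -0.046. With voom Slc26a3 was -0.52 and Cyp1a1 -0.076; with powder libraries 5 and 6 left out Slc26a3 was -0.33 and Cdkn1a -0.055. Lcn2 was -0.000805 with the mitochondrial share. With single libraries left out, Cdkn1a ran from -0.10 to 0.12, Mdm2 from -0.093 to 0.12, Reg3g from -0.41 to 0.97, Lcn2 from -0.051 to 0.31, Mki67 from -0.043 to 0.19, Slc26a3 from -0.60 to 1.00 and Atp12a from -2.51 to 0.27.

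Same-numbered powder and vehicle libraries did not pair: their correlations ran from -0.60 to 0.52, and 1 of 6 powder libraries correlated best with its own number. With the replicate number as a block 0 genes were called, and Reg3g was -0.21. At 17.2 to 19.4 M counts, values well under 1 CPM rest on few counts per library, and counting error limits them.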
